A study of Mus musculus with 6 samples.

Results

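The STAT transcription factor genes Stat3, Stat2, Stat5a, Stat5b, Stat6 and Stat4 were examined in L929 cells, a mouse fibroblast line derived from connective tissue. These 6 genes were taken by symbol from the 27507 gene identifiers of the deposited table. RNA was measured by poly(A) RNA-seq in 3 samples labelled STING KO (Sting-/- L929 cells) and 3 control samples (genotype label WT), and the labels name no treatment of either group. The labels do not say how the knockout was made, whether it is 1 clone, or whether the replicates are separate cultures. The p-values thus rest on the spread among these 6 libraries, which may be technical. STING is the endoplasmic reticulum adaptor that relays the signal of the DNA sensor cGAS to the kinase TBK1, to IRF3 and to NF-kB.

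STAT proteins wait in the cytoplasm, are phosphorylated on tyrosine by JAK kinases bound to cytokine receptors, pair up and act on genes in the nucleus. STAT3 is the main factor of the interleukin-6 family and of the acute-phase response. STAT2 joins IRF9 in the ISGF3 complex of the type I interferon response and is the interferon STAT among these genes. STAT5A and STAT5B serve growth hormone, prolactin and several cytokines, STAT6 serves interleukin-4 and interleukin-13, and STAT4 serves interleukin-12 in lymphocytes.

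Values are normalized counts, which are gene counts divided by a size factor of each sample. Totals of these scaled values were 14382072 to 14526606 per sample, and they do not give the sequencing depth. Sting1, listed under its older symbol Tmem173, was at 82.1, 80.6 and 93.4 normalized counts in STING KO libraries and at 329, 313 and 311 in control libraries, which goes with the labels. Of 13 fibroblast markers all were above 0 in some library, with summed levels of 210012 to 224189 in STING KO and 196353 to 208242 in control. Dcn and Lum, which mark fibroblasts in tissue, were at 0 to 32.7 and 0 to 11.9 in STING KO and at 0.998 to 94.4 and 0 to 31.8 in control. Of 11 hepatocyte markers all were above 0 in some library, and STING KO replicate 1 (summed level 5042) and control replicate 3 (5352) stood apart from the other libraries, at 288 to 667 in STING KO and 250.4 to 634 in control. Results are therefore also given without these libraries, named below as those that held hepatocyte transcripts. The other libraries held lower levels of such transcripts. These are bulk samples, in which fewer cells of a type and less RNA per cell cannot be told apart. Myeloid markers summed to 1380 to 1548 in STING KO and 1343 to 1596 in control. Of the 10 listed, only 2 averaged at least 50 normalized counts over the 6 libraries.

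The promoter windows of Stat3 and Stat2 are printed because these genes stand for the interleukin-6 and the interferon arm. Each window runs from 250 bases before the RefSeq transcription start to 50 after it on GRCm38.p6, written 5′ to 3′ along the gene. The Stat3 window is chr11:100939491-100939790 on the minus strand and the Stat2 window is chr10:128270248-128270547 on the plus strand. Capitals mark the only match found, in Stat2, to the core of the interferon-stimulated response element (GAAA, any 2 bases, GAAA), here read on the opposite strand.
Stat3: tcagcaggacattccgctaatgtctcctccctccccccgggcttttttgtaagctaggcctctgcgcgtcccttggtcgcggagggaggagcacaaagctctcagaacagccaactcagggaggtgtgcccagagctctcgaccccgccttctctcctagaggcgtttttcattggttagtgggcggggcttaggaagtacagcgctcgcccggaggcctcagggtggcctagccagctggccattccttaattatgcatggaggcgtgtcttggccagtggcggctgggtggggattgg
Stat2: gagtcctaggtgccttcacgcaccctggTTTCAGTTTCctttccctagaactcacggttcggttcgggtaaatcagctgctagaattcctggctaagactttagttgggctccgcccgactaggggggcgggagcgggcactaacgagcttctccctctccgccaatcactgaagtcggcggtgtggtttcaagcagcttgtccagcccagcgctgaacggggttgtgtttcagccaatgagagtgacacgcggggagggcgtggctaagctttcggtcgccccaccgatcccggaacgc

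The Stat2 match covers bases 29 to 38 of its window. Both strands were searched for that core, for the STAT motif TTCNNNGAA, for the cyclic AMP element TGACGTCA and for the NF-kB consensus. Of 32851 RefSeq promoter windows of the same length, 3.44% held the interferon element core, 8.3% the STAT motif, 1.79% the cyclic AMP element and 8.46% the NF-kB consensus. The Stat3 window held none of these letters. The 9 windows of the 6 genes also held 1 interferon element core at the second start of Stat4 and 1 NF-kB consensus at the second start of Stat5a. A match is a description of letters and not a binding site.

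Stat3 RNA in STING KO averaged 79.7% of its control level with no overlap between the groups, and this difference lay just outside the threshold of the main test. Stat3 (ENSMUSG00000004040) lies on chromosome 11 at 100885098 to 100939540 on the minus strand of GRCm38 and encodes the interleukin-6 family STAT. It was at 1991, 2071 and 1886 normalized counts in STING KO libraries, against 2534, 2398 and 2527 in control libraries. The highest STING KO library was thus below the lowest control library. The STING KO libraries stood at 80.1%, 83.3% and 75.8% of the control mean. The means were 1983 ± 92.8 in STING KO and 2486 ± 76.6 in control (SD, n = 3 each).

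The log2 fold change of Stat3 was -0.33 (SE 0.05), with a 95% interval of -0.45 to -0.21, which is 73.3% to 86.6% of the control level. The limma adjusted p was 0.0553, over 12408 genes tested and against a threshold of 0.05. Stat3 ranked 33rd by p among these genes, directly after the 32 genes called. In the authors' deposited table the log2 fold change of Stat3 is -0.33 (SE 0.07) with an adjusted p of 0.000705, which passes the threshold. Without both libraries that held hepatocyte transcripts the log2 fold change was -0.32 (limma adjusted p = 0.9998), with 2 libraries in each group. Over the fits that left out 1 library the log2 fold change was -0.36 to -0.29 and the adjusted p was 0.0659 to 0.47.

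Stat2, the partner of IRF9 in interferon signalling, did not separate the groups. Stat2 (ENSMUSG00000040033, chromosome 10, 128270559 to 128292849, plus strand) was at 566, 621 and 591 normalized counts in STING KO libraries and at 596, 605 and 630 in control libraries. The ranges overlapped, and STING KO replicate 2 was above the first and second control libraries. The means were 593 ± 27.6 in STING KO and 610.1 ± 17.6 in control (SD, n = 3 each). The log2 fold change was -0.04 (SE 0.06, limma adjusted p = 0.843), with a 95% interval of 88.1% to 107% of the control level.

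Stat5a and Stat5b, close paralogs, lie next to Stat3 on chromosome 11. Stat5a (ENSMUSG00000004043, 100859351 to 100885169, plus strand) was at 1240, 1144 and 1135 normalized counts in STING KO libraries and at 1265, 1258 and 1272 in control libraries. The groups did not overlap, by a narrow margin at STING KO replicate 1. Its log2 fold change was -0.11 (SE 0.06, limma adjusted p = 0.737), with a 95% interval of 85.05% to 101% of control. Stat5b (ENSMUSG00000020919, 100780731 to 100850724, minus strand) was at 1552, 1542 and 1488 in STING KO libraries and at 1485, 1433 and 1582 in control libraries. These ranges overlapped. Its log2 fold change was 0.03 (SE 0.06, limma adjusted p = 0.888), with a 95% interval of 93.5% to 111% of control.

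Stat6, the interleukin-4 STAT, overlapped between the groups as well. Stat6 (ENSMUSG00000002147, chromosome 10, 127642986 to 127660957, plus strand) was at 1877, 2125 and 1915 normalized counts in STING KO libraries and at 2028, 1918 and 1925 in control libraries. Its log2 fold change was 0.01 (SE 0.06, limma adjusted p = 0.966), with a 95% interval of 91.7% to 110.5% of control. STING KO replicate 2 was its highest library and STING KO replicate 1 its lowest.

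Stat4, which in mice is mainly a gene of lymphocytes and other immune cells, was near the lower limit of detection. Stat4 (ENSMUSG00000062939, chromosome 1, 51987148 to 52107189, plus strand) was at 5.94, 9.96 and 11.05 normalized counts in STING KO libraries and at 6.99, 6.98 and 4.97 in control libraries. It did not reach 10 in at least 3 samples and was not tested. STING KO replicate 1 lay within the control range and the other STING KO libraries lay above it. Of 11 lymphocyte markers, Ms4a1, Ncr1 and Gzma were at 0 in all 6 libraries. The summed level of the list was 806 to 906 in STING KO and 725 to 850 in control, most of it Cd79a. Their part in the Stat4 level was not tested. In the authors' deposited table Stat4 has a log2 fold change of 0.51 (SE 0.72) and an adjusted p of 0.9999999.

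**Figure D1:**
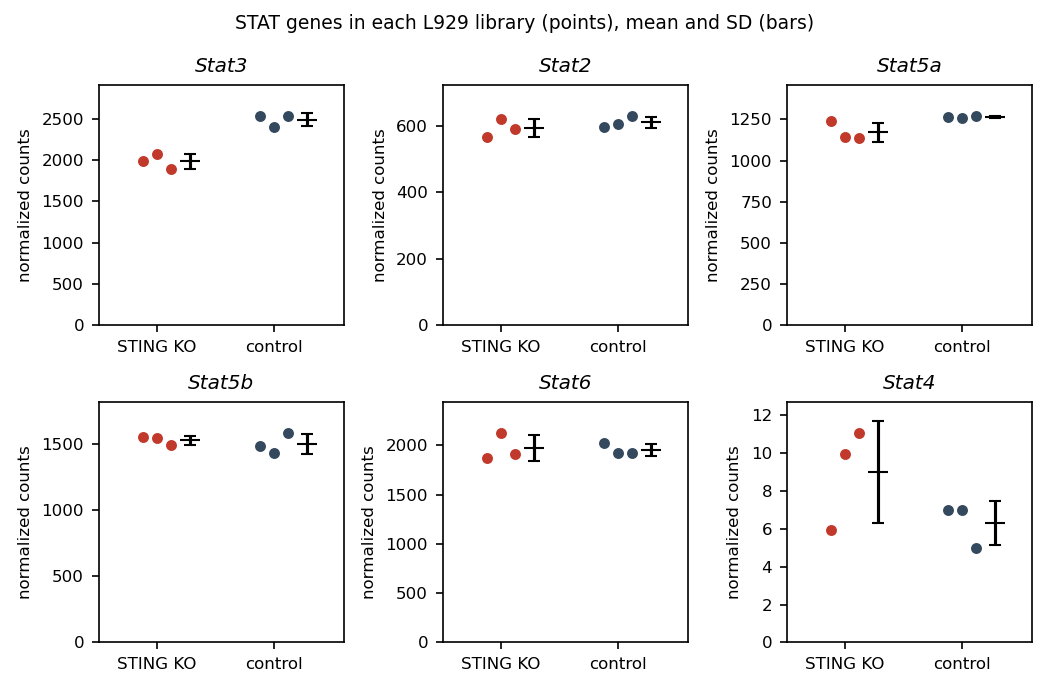
Normalized counts (y axis, from 0) of the 6 STAT genes in the 3 STING KO libraries (red) and the 3 control libraries (dark), with the mean and SD of each group beside the points. Stat3 sits at 1886 to 2071 in STING KO and 2398 to 2534 in control, while Stat2, Stat5b, Stat6 and Stat4 overlap.

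Thus 5 of the 6 genes were tested, and 0 were called in either direction by limma, against 0.258% of all genes tested that were called lower and 0.0% called higher. At an unadjusted p under 0.05, 1 of the 5 (Stat3) was lower and 0 were higher, as were 395 (3.18%) and 397 (3.2%) of all genes tested. limma-voom called 0 of the 5 as well. The authors' deposited table calls Stat3 alone of the 6, where 0.294% of its 13942 genes with an adjusted p are called, 0.251% lower and 0.043% higher. All STING KO values were below all control values in Stat3 and Stat5a, as in 6.32% of all genes tested, and the reverse was seen in 0 members and 5.76% of genes, which makes 12.1% of genes tested without overlap in either direction.

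The difference between Stat3 and the other STAT genes was taken within each library, where a scaling error cancels. The ratio of Stat3 to Stat2 in normalized counts was 3.52, 3.33 and 3.19 in STING KO libraries and 4.25, 3.97 and 4.01 in control libraries. Every STING KO ratio was below every control ratio. The means were 3.35 ± 0.165 in STING KO and 4.08 ± 0.153 in control (SD, n = 3 each). The log2 ratio differed by -0.29 (95% interval -0.42 to -0.15 from the limma fit). The exact two-sided permutation test gave p = 0.1, the smallest that 3 samples against 3 allow.

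The same order held against each of the other tested members. The ratio of Stat3 to Stat6 averaged 1.01 ± 0.0473 in STING KO and 1.27 ± 0.0363 in control (SD, n = 3 each), a log2 difference of -0.34 (95% interval -0.46 to -0.22). The ratio to Stat5b averaged 1.30 ± 0.0398 in STING KO and 1.66 ± 0.0557 in control (SD, n = 3 each), a log2 difference of -0.35 (95% interval -0.47 to -0.24). The ratio to Stat5a showed the smallest difference, at 1.69 ± 0.106 in STING KO and 1.97 ± 0.0519 in control (SD, n = 3 each), or -0.22 on the log2 scale (95% interval -0.35 to -0.09). Each of these gave an exact permutation p of 0.1, and 0.1 adjusted over the 4 ratios. The 4 ratios share Stat3 and are not independent. Without both libraries that held hepatocyte transcripts the log2 difference of the ratio was -0.33 (SE 0.09) for Stat2, -0.17 (SE 0.09) for Stat5a, -0.37 (SE 0.08) for Stat5b and -0.35 (SE 0.08) for Stat6.

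**Figure D2:**
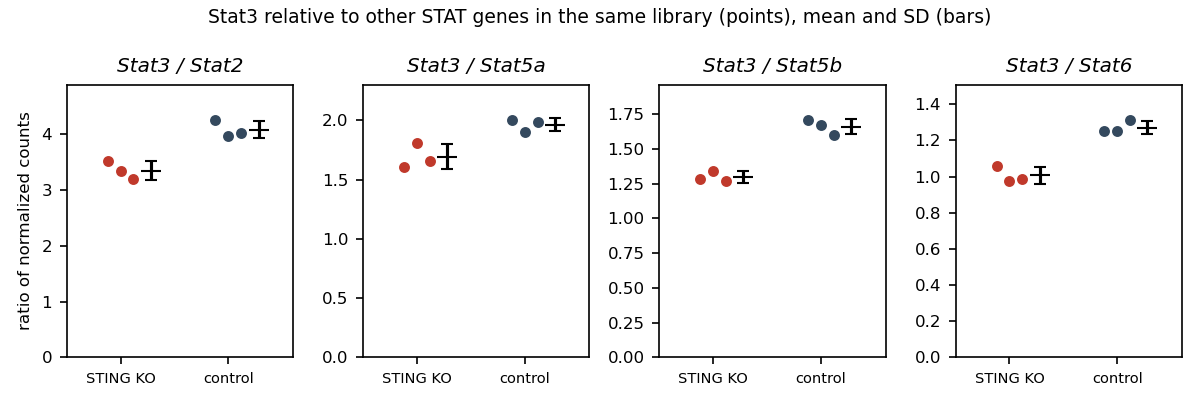
Ratio of the normalized count of Stat3 to that of Stat2, Stat5a, Stat5b and Stat6 in the same library (y axis, from 0), for the 3 STING KO libraries (red) and the 3 control libraries (dark), with mean and SD. The STING KO points lie below the control points in all 4 panels, for Stat2 at 3.19 to 3.52 in STING KO and 3.97 to 4.25 in control.

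Levels of different genes were compared as normalized counts per kb of exon, with the length taken as the union of each gene's exons. Stat6 was highest, at 448 ± 30.3 per kb in STING KO and 445 ± 13.9 per kb in control (SD, n = 3 each). Stat5b came next with 276 ± 6.2 in STING KO and 271 ± 13.6 in control. Stat3 followed at 208 ± 9.74 in STING KO and 261 ± 8.04 in control, and Stat5a at 164 ± 8.19 in STING KO and 177 ± 0.961 in control. Stat2 was at 100.1 ± 4.66 in STING KO and 103 ± 2.97 in control, and Stat4 was lowest at 2.32 ± 0.695 in STING KO and 1.63 ± 0.301 in control.

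On this scale Stat3 and Stat5b were separated in STING KO (198 to 217 for Stat3, 269 to 280 for Stat5b), while in control their ranges overlapped (252 to 266 for Stat3, 259 to 286 for Stat5b). The other neighbours in the order did not overlap in either group. The middle of the order depended on the length used. With the longest protein-coding transcript, Stat3 (328 in STING KO, 412 in control) stood above Stat5a (302 in STING KO, 325 in control) and Stat5b (293 in STING KO, 288 in control). Ranges of Stat3 and Stat5a then overlapped in STING KO (312 to 343 for Stat3, 292 to 319 for Stat5a), and those of Stat5a and Stat5b did too (285.5 to 298 for Stat5b). Stat6 remained highest, and Stat2 and Stat4 lowest, with either length. Among 12406 tested genes with a length, 84.3% were below Stat6, 74.0% below Stat5b, 70.1% below Stat3, 61.3% below Stat5a, 47.4% below Stat2 and 1.06% below Stat4 on the per-kb scale.

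**Figure D3:**
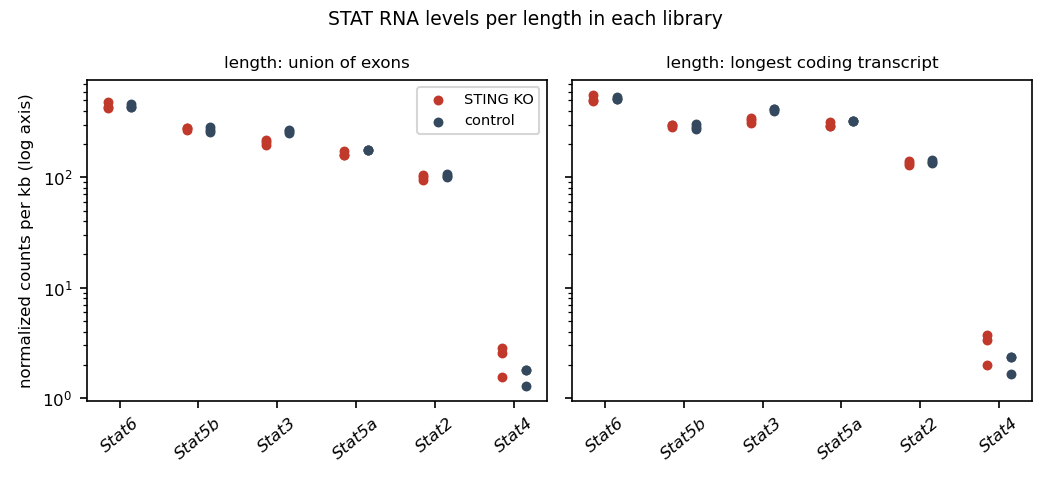
Normalized counts per kb (log axis) of the STAT genes in each STING KO library (red, left of each pair) and control library (dark), with the length as the union of exons (left panel) or as the longest protein-coding transcript (right panel). Stat6 is highest and Stat4 lowest in both panels. By group means Stat5b stands above Stat3 and Stat5a in the left panel and below both in the right panel.

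The 3 STAT genes of chromosome 11 form 1 block, and their reads are not fully separable. Stat3 and Stat5a point at each other and share 72 exonic bases on opposite strands, and the strand setting of the counting is not given in the sources used here. Of the 50-base windows in Stat5a transcripts 8.21% also occur in Stat5b transcripts, and of those in Stat5b transcripts 10.98% occur in Stat5a. The values of these paralogs are thus uncertain, by an amount that these shares of sequence do not measure. Of the Stat3 windows 0.555% occur in transcripts of any other gene, of the Stat2 windows 0.788%, and of the Stat6 windows 0. Of the Stat4 windows 21.7% occur in Gm28177, an overlapping transcript on the same strand, so that the low Stat4 value is also uncertain in its source.

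Genes on either side of the STAT genes did not pass the test. Cavin1, which encodes a coat protein of caveolae and lies beyond the Stat3 promoter, was at 12381 ± 502 normalized counts in STING KO and 11759 ± 269 in control (SD, n = 3 each). Its log2 fold change was 0.07 (limma adjusted p = 0.737). All STING KO values of Cavin1 were above all control values, as in 5.76% of all genes tested. Ghdc, at the other end of the block, was at 724 ± 50.2 in STING KO and 656 ± 43.3 in control (SD, n = 3 each), with a log2 fold change of 0.14 (limma adjusted p = 0.737). Beside Stat2, Timeless, a gene of replication fork protection, had a log2 fold change of -0.03 and Il23a, an interleukin-23 subunit gene, one of -0.13 (limma adjusted p of 0.911 and 0.742). Beside Stat6, Lrp1, a lipoprotein receptor gene, had a log2 fold change of -0.09, and Nab2, a corepressor of EGR factors that shares 40 exonic bases with Stat6 on the opposite strand, had one of 0.17 (limma adjusted p = 0.737 for both). Nab2 was at 1093, 1064 and 1187 in STING KO libraries and at 1005, 981 and 992 in control libraries, with no overlap. Nabp1, a single-stranded DNA-binding protein gene on the lower side of Stat4, had a log2 fold change of 0.02 (limma adjusted p = 0.976).

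Ligands of the interleukin-6 family, which signal to STAT3, included called members. Of 9 listed, 5 were tested, 2 were called lower and 0 higher, where 0.258% of all genes tested were called lower and 0.0% higher. Il6, the founding cytokine of the family, was at 12.9, 10.95 and 11.05 normalized counts in STING KO libraries, against 62.9, 51.9 and 57.6 in control libraries (log2 fold change -2.30, SE 0.20, limma adjusted p = 0.000871). Lif, the leukemia inhibitory factor, was at 81.2, 85.6 and 82.3 in STING KO libraries and at 124, 147 and 161 in control libraries (log2 fold change -0.78, SE 0.12, limma adjusted p = 0.0359). The groups of both ligands did not overlap. Lif lost its call without control replicate 2 (adjusted p = 0.121) or 3 (0.202) and without STING KO replicate 1 (0.22) or 2 (0.0996). With all 6 libraries it was also not called by limma-voom (0.0556) or with no filter on low values (0.1002). Without both libraries that held hepatocyte transcripts Lif was at 0.802 and Il6 was still called (adjusted p = 0.0221). Osm, Il11 and Ctf1 were tested and not called, and Clcf1 was listed at 0 in all libraries.

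Among the receptors of that family 1 of 6 tested genes was called lower and 0 higher, against the same 0.258% and 0.0% of all genes tested. Osmr, the chain that binds oncostatin M, was at 770, 864 and 772 normalized counts in STING KO libraries and at 1230, 1219 and 1270 in control libraries. Its log2 fold change was -0.63 (SE 0.06, limma adjusted p = 0.00189), and without both libraries that held hepatocyte transcripts it was -0.58 (adjusted p = 0.138). Il6st, the shared chain gp130, was at 3109, 3318 and 2666 in STING KO libraries and at 3908, 3412 and 3881 in control libraries. Its groups did not overlap, but it was not called, at a log2 ratio of -0.30 (SE 0.08, limma adjusted p = 0.548). Il6ra (-0.05) and Lifr (-0.03) were not called either.

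The kinases between receptors and STATs showed smaller values. Of the 4 JAK genes 0 were called, and their log2 fold changes ran from -0.12 (Jak3) to -0.01 (Tyk2), with a median of -0.05. Jak3, the kinase of the common gamma chain, was at 969, 924 and 947 normalized counts in STING KO libraries and at 1070, 1066 and 949 in control libraries (limma adjusted p = 0.737). Control replicate 3 lay within the STING KO range.

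Interferon ligands and receptors had 5 of 8 genes tested and 0 called. Ifnb1, the interferon beta gene, was listed at 0 in all 6 libraries. Ifngr2, the second chain of the interferon gamma receptor, had the smallest p of this list. It was at 1236, 1281 and 1199 normalized counts in STING KO libraries and at 1342, 1400 and 1390 in control libraries. These groups did not overlap, and the log2 fold change was -0.15 (SE 0.05, limma adjusted p = 0.733). Ifnar1 and Ifnar2, the chains of the type I interferon receptor, had log2 fold changes of -0.01 and -0.09 (limma adjusted p of 0.949 and 0.744).

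Receptors of interleukin-4, interleukin-12, growth hormone and related cytokines had 6 of 17 genes tested and 0 called. Il4ra, the receptor chain upstream of STAT6, was at 295, 263 and 261 normalized counts in STING KO libraries and at 308, 341 and 288 in control libraries (log2 fold change -0.19, limma adjusted p = 0.737). The interleukin-12 receptor genes were barely present, with Il12rb1 listed at 0 in all libraries.

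Of 8 partners of STAT proteins all were tested and 0 were called, with a median log2 fold change of -0.08. Irf9, the DNA-binding partner of STAT2, was at 443, 431 and 441 normalized counts in STING KO libraries and at 462, 456 and 509 in control libraries. The STING KO values lay below the control values, and the log2 fold change was -0.12 (SE 0.07, limma adjusted p = 0.737). Ndufa13, a respiratory complex I subunit that also binds STAT3, had the smallest p of this list, at 2173, 2131 and 2697 in STING KO libraries and at 1973, 2172 and 1893 in control libraries. Its groups overlapped (log2 fold change 0.21, limma adjusted p = 0.737).

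Of 16 STAT inhibitors, 16 were tested and 0 called, with a median log2 fold change of -0.05. Socs3, the inhibitor that binds gp130 and JAK kinases and is itself induced by STAT3, had the smallest p of the list. It was at 280.1, 309 and 306 normalized counts in STING KO libraries, against 414, 372 and 382 in control libraries. All STING KO values were below all control values, and the log2 fold change was -0.38 (SE 0.08, limma adjusted p = 0.158). In the authors' deposited table Socs3 has an adjusted p of 0.329. The protein inhibitors Pias1 to Pias4 had log2 fold changes of -0.13 (Pias2) to 0.11 (Pias4).

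**Figure D4:**
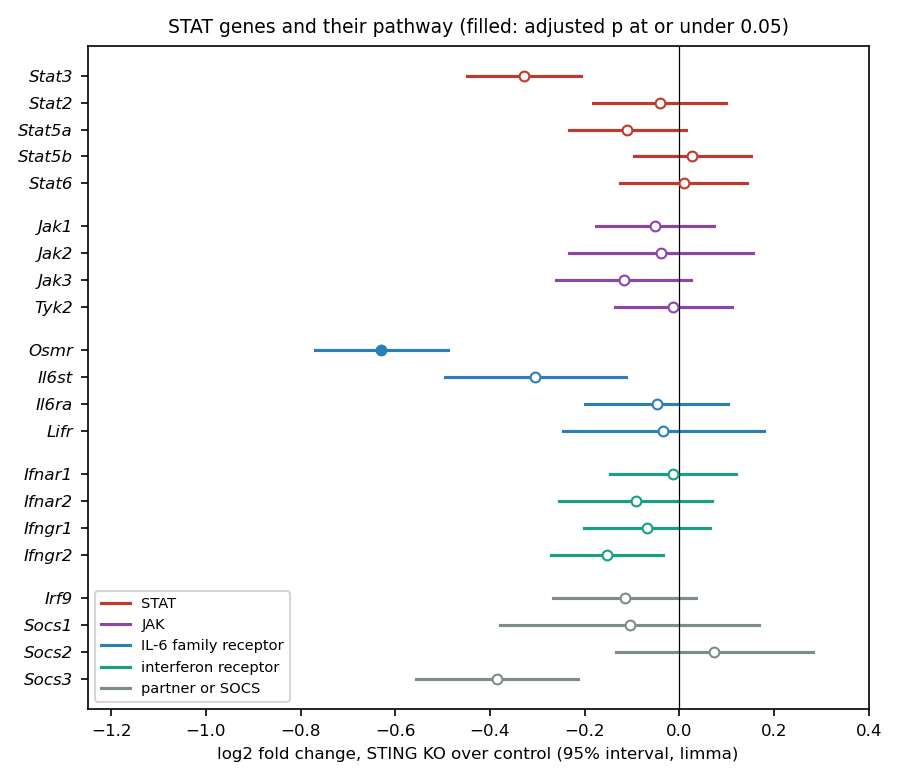
Log2 ratio of STING KO to control (x axis) with its 95% limma interval for the tested STAT genes, the JAK genes, 8 receptor genes, Irf9, Socs1, Socs2 and Socs3. Osmr is the 1 filled point, past the adjusted threshold, and of the open points drawn Stat3, Il6st, Ifngr2 and Socs3 have intervals below 0.

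Some genes known as targets of STAT3 fell. Of 30 listed, 29 were tested, 4 were called lower, 0 higher and 25 were not called. Thus 13.8% were called lower, against 0.258% of all genes tested, and the median log2 fold change was -0.13 against -0.00 over all genes tested. The list was made with earlier results of these data known, 8 of its genes stand in other lists used here, and several are targets of NF-kB as well. Without both libraries that held hepatocyte transcripts 2 of the 29 were called, Cebpd (adjusted p = 0.0232) and Lcn2 (8.79e-05), and Lcn2 was not called with all 6 libraries.

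The called STAT3 targets were a pair of transcription factors, a receptor and a plasma protein. Cebpd, the C/EBP delta factor of the acute-phase response, was at 434, 481 and 442 normalized counts in STING KO libraries and at 870, 809 and 803 in control libraries (log2 fold change -0.87, SE 0.07, limma adjusted p = 0.000428). Junb, an AP-1 subunit, was at 606, 583 and 556 in STING KO libraries and at 913, 915 and 926 in control libraries (log2 fold change -0.66, SE 0.06, limma adjusted p = 0.001). Cp, the copper-carrying ferroxidase ceruloplasmin, was at 819, 832 and 802 in STING KO libraries and at 1154, 1118 and 1312 in control libraries (log2 fold change -0.54, SE 0.07, limma adjusted p = 0.00968). Osmr was the remaining called gene. The groups of all 4 genes did not overlap. Cp lost its call without control replicate 1 (adjusted p = 0.063) or STING KO replicate 1 (0.0827), and without both libraries that held hepatocyte transcripts Junb was at 0.0516 and Cp at 0.295.

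All STING KO values were below all control values in 11 of the 29 STAT3 targets tested, against 6.32% of all genes tested. The reverse was seen in 0 of them, against 5.76% of all genes tested. Lcn2 and Ier3 were among these 11 and were not called with all libraries. The same held for Socs3, Il6st, Mcl1 and Pim1. Lcn2, the iron-scavenging lipocalin 2, was at 146, 46.8 and 41.2 normalized counts in STING KO libraries and at 295, 319 and 347 in control libraries (log2 fold change -2.28, SE 0.39, limma adjusted p = 0.072). STING KO replicate 1, its highest STING KO library, also held hepatocyte transcripts, and without that library the log2 fold change was -2.86 (limma adjusted p = 1.76e-05). Lcn2 was also called without STING KO replicate 3 (adjusted p = 0.043) and by limma-voom (0.0236). It was not called in the authors' deposited table (0.164), without STING KO replicate 2 (0.222) or without control replicate 1 (0.319), 2 (0.136) or 3 (0.328). Ier3, an immediate early gene, was at 262, 258 and 296 in STING KO libraries and at 341, 396 and 378 in control libraries (limma adjusted p = 0.143). In contrast Myc (log2 fold change -0.03), Ccnd1 (-0.04) and Bcl2l1 (0.03) lay near 0 and were not called. Of the 29 STAT3 targets tested, 22 had a negative log2 fold change and 7 a positive one. Saa3 had the highest, at 0.59 (SE 0.27, limma adjusted p = 0.737). It averaged 33.2 ± 2.69 normalized counts in STING KO and 22.9 ± 7.97 in control (SD, n = 3 each), and its groups overlapped.

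Targets of ISGF3, the complex that holds STAT2 and IRF9, were spread evenly around 0. Of 30 listed, 26 were tested and 0 called, by limma as by limma-voom and in the authors' deposited table. Their log2 fold changes were negative in 13 and positive in 13, with a median of -0.00. Parp14, an ADP-ribosyltransferase gene, had the smallest p, at 62.4, 65.7 and 66.3 normalized counts in STING KO libraries and at 81.9, 79.8 and 88.4 in control libraries (log2 fold change -0.36, limma adjusted p = 0.717). Its groups did not overlap. Oas1a, a sensor of double-stranded RNA, went the other way, at 230, 218 and 234 in STING KO libraries and at 213, 199.5 and 192 in control libraries (log2 fold change 0.18, limma adjusted p = 0.737). The groups of Oas1a did not overlap either. All STING KO values were below all control values in 3 of the 26 tested targets, against 6.32% of all genes tested. They were above all control values in 1, against 5.76%. Isg15, a ubiquitin-like modifier, had a log2 fold change of 0.16 (limma adjusted p = 0.766).

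Targets of STAT5 had 8 of 13 genes tested and 0 called, with a median log2 fold change of -0.03. Cish, the inhibitor induced by STAT5, averaged 32.9 ± 7.85 normalized counts in STING KO and 32.9 ± 4.01 in control (SD, n = 3 each). Socs2 was at 185 ± 15.4 in STING KO and 175 ± 6.6 in control (SD, n = 3 each). Pim1, a kinase gene also in the STAT3 list, had the smallest p here (log2 fold change -0.32, limma adjusted p = 0.737). Of 14 STAT6 targets 3 were tested and 0 were called, since most, such as Retnla and Chil3, were at or near 0. Vcam1, an adhesion molecule of leukocyte binding, had the smallest p of those, at 63.3, 63.7 and 53.2 in STING KO libraries and at 85.9, 63.8 and 106 in control libraries (log2 fold change -0.48, limma adjusted p = 0.737). Its groups did not overlap, by a narrow margin.

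**Figure D5:**
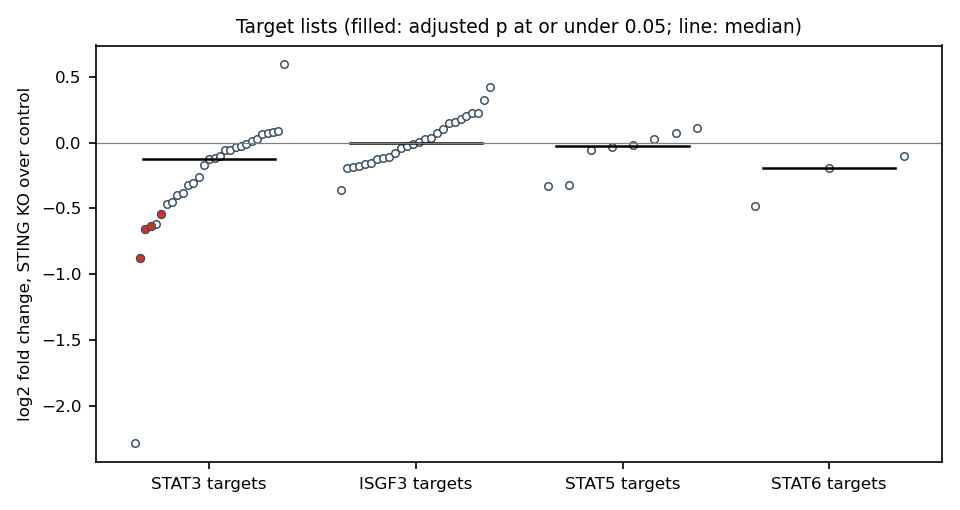
Log2 ratio of STING KO to control (y axis) for each tested gene of the STAT3, ISGF3, STAT5 and STAT6 target lists, sorted within a list, with the list's median as a line. The 4 filled points past the adjusted threshold are all STAT3 targets, whose median is -0.13, and the ISGF3 targets have 13 points on each side of 0.

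The genes most like Stat3 across the 6 libraries were Nfkb2, Smurf1 and Cdk6. Likeness was Pearson's r of log2 values over 6 libraries, searched in 9814 tested genes with a mean of at least 100 normalized counts. It was 0.996 for Nfkb2, the p100 NF-kB subunit gene, 0.992 for Smurf1, a ubiquitin ligase gene, and 0.992 for Cdk6, a cell cycle kinase gene. Nfkb2 was at 1537, 1595 and 1486 normalized counts in STING KO libraries and at 2017, 1918 and 1986 in control libraries. It was called lower (log2 fold change -0.36, limma adjusted p = 0.024), and lost that call without control replicate 1 (0.237) or 3 (0.181) and without STING KO replicate 1 (0.217). Without both libraries that held hepatocyte transcripts its log2 fold change was -0.35 (limma adjusted p = 0.982). The genes most like Stat2 were Klf15, Invs and Tut1, with r of 0.983, 0.983 and 0.979, and 0 of these 3 were called. These values follow both genotype and the differences between libraries, and are given as a description.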

How the data were processed

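Poly(A) RNA of 3 STING KO and 3 control L929 samples was sequenced. The members and gene lists were chosen with earlier results of these data known. Per the submitters' processing notes, which give no roles, the tools were DESeq2 1.4.5, RSEM 1.2.12, Bowtie2 2.2.5 and HISAT2 2.0.4, and the builds GRCm38 and mm10. The authors deposited 1 table whose sample columns hold a signal, gene counts divided by a size factor of each sample. Per the file headers it also holds the authors' log2 fold change, a Wald score, an SE and both a raw and an adjusted p-value. The first row of each of 27507 identifiers was kept, leaving out 314 repeat rows. Coordinates and lengths came from GENCODE M21 (GRCm38, 27480 identifiers matched), and promoters from RefSeq on GRCm38.p6, in which all 6 STAT symbols matched.

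limma 3.58.1 (R 4.3.3) with a mean-variance trend was fitted on log2(normalized count + 0.1) over all 12408 genes with at least 10 in at least 3 samples, with Benjamini-Hochberg adjustment and a threshold of 0.05. Fold changes are differences of mean values on that log2 scale. The added 0.1 pulls those of low genes toward 0. They can also exceed the change in group means, as in Bcl3 (log2 fold change -0.62, STING KO mean at 80.3% of control). Ratios of Stat3 to other members were added to the same fit, with intervals only. Pairs of libraries of 1 group differed by more than counting noise (chi-square per degree of freedom 2.41 to 10.6), so none was taken for a repeat deposit. Named genes were the members, called genes of the lists, the smallest p of lists with none called, the 3 genes most like Stat3 and Stat2, chromosomal neighbours and Sting1. 1 neighbour is not reported here. Other genes were named after their values were seen.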

Additional observations from a re-analysis of the deposited data

How the results depend on the processing

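Stat3 kept a negative log2 fold change in all 16 alternatives run for it (-0.36 to -0.29), and passed the threshold in 1 of them, the authors' deposited test (-0.33, adjusted p = 0.000705). The other adjusted p ran from 0.0527 with TMM scaling to 0.9999 with limma-voom without both hepatocyte-RNA libraries. The cause of the difference between tests was not tested. Among the other tested members, Stat2 turned to 0.014 without both hepatocyte-RNA libraries, by limma and by limma-voom. Over the fits that left out 1 library Stat5b ran from -0.0048 to 0.066 and Stat6 from -0.046 to 0.044. Stat5a stayed between -0.15 and -0.09. The log2 ratio of Stat3 to Stat2, Stat5a, Stat5b and Stat6 stayed negative under each of 13 alternatives (-0.38 to -0.17).

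The count of genes lower over the whole table, 32, fell to 13 without both hepatocyte-RNA libraries, by limma and by limma-voom, and ran from 21 to 35 over the fits that left out 1 library. The count of genes higher, 0, was 6 in the authors' test and 0 to 2 over the same fits. Same-numbered libraries deviated from their group means with correlations of -0.183, -0.18 and -0.488, and 0 of 6 libraries correlated best with their own number. These correlations took in both hepatocyte-RNA libraries, whose replicate numbers differ. They therefore cannot exclude a pairing of the samples by replicate number. A fit with the replicate block called 18 genes lower, and Stat3 was at -0.33 (adjusted p = 0.62). Lif (0.17), Cp (0.131) and Nfkb2 (0.409) were not called under it. limma-voom was added after seeing the data. The edgeR and DESeq2 fits planned on recovered whole reads were not run.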
